A study of Peromyscus polionotus with 11 samples.

Results

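GABA is the main inhibitory transmitter of the forebrain. It is made from glutamate by 2 decarboxylases, GAD67 (Gad1) and GAD65 (Gad2), and is loaded into synaptic vesicles by the vesicular inhibitory amino acid transporter VGAT (Slc32a1). On the receiving cell it opens GABA-A receptors, chloride channels of 5 subunits that include alpha 2 (Gabra2) and beta 1 (Gabrb1), and it activates GABA-B receptors, which are G protein coupled and contain the subunit GABBR1 (Gabbr1). Many neurons of the medial preoptic area and of the bed nucleus of the stria terminalis are GABAergic, and both regions belong to the circuits of reproductive and aggressive behaviour in rodents.

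These 6 genes were chosen by name for their place in the GABA system, with earlier results of these data known. Every probe set annotated to 1 of them alone was taken. That gave 11 of the 22626 probe sets tested: 2 for Gad1, 1 for Gad2, 2 for Slc32a1, 1 for Gabra2, 1 for Gabrb1 and 4 for Gabbr1. Each reading is the brightness of a probe set (intensity, linear scale), and the median reading of every array was 19. Levels of different probe sets are not comparable, since each has its own probes.

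Brains of oldfield mice (Peromyscus polionotus) kept in short or long days were sampled by micropunch, and the RNA was hybridised to arrays designed for the house mouse. The groups were 2 short-day and 3 long-day bed nucleus samples, then 3 short-day and 3 long-day preoptic samples. Per the series' design text the samples within a group were independent, but the labels do not tie a sample to an animal, and they give neither strain, sex, age nor hours of light. The sample numbers used below are those of the labels. The quartiles of the 11 arrays lay at 13 to 14 and at 33 to 35. The deposited values had already been processed, so near-equal quartiles cannot show whether an array was dim before that. Array 6 of the short-day preoptic group stood apart, at -31.2 on a first principal component (23.2% of the variance) on which the other 10 lay between -6.63 and 25.4. Where leaving it out changed whether a GABA gene, or a listed marker that had passed, passed the test, both results are given. Marker sums, list medians and correlations were computed with it only, as were the differences of listed genes that did not pass.

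None of the 11 probe sets passed the test in any of 4 comparisons. These were short minus long days in the bed nucleus, short minus long days in the preoptic area, bed nucleus minus preoptic area, and the difference between the 2 day length effects. Without array 6 of the short-day preoptic group 1 passed, Slc32a1 1422756_at between the nuclei, and 0 in the other 3 comparisons. The test was limma's moderated linear model over all 11 arrays, 2-sided, with the adjusted p (Benjamini-Hochberg over all 22626 probe sets) under 0.05. Over all probe sets the same rule called 10 (0.0442%) between day lengths in the bed nucleus and 0 (0%) in the preoptic area. It called 233 (1.03%) between the nuclei and 0 (0%) for the difference between the day length effects. At an unadjusted p under 0.05, limma gave 1, 0, 2 and 0 of the 11 in these 4 comparisons, against 12.7%, 3.5%, 11.9% and 8.34% of all probe sets. The median differences of the 11 were -0.04, 0.03, -0.01 and -0.11 on the log2 scale, and those of all probe sets were -0.01, 0, 0.00039 and -0.02. The smallest p between the nuclei among the 11 was that of the vesicular transporter Slc32a1.

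The 2 GABA-synthesising enzymes read brightly on every array. The brighter Gad1 probe set, 1416561_at, read 346 and 318 in short-day bed nucleus samples, against 256, 358 and 289 in long-day ones. In the preoptic area it read 313, 363 and 319 in short days, against 319, 297 and 314 in long days. The short-day and long-day readings overlapped in both nuclei. The short-day minus long-day difference was 0.15 ± 0.15 in the bed nucleus (SE, log2 scale, 95% confidence interval -0.162 to 0.471, limma adjusted p = 0.721). It was 0.09 ± 0.14 in the preoptic area (-0.188 to 0.378, adjusted p = 1). Between the nuclei Gad1 differed by -0.03 ± 0.10, a fold of 0.982 with an interval of 0.848 to 1.14 (adjusted p = 0.95). The second Gad1 probe set, 1416562_at, averaged 45.0 ± 2.83 in short-day and 49.7 ± 11.9 in long-day bed nucleus samples (SD, n = 2 and 3). Its preoptic averages were 45.3 ± 2.52 in short days and 45.7 ± 5.77 in long days (SD, n = 3 each), so neither Gad1 probe set separated any groups.

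Gad2 read 406 and 322 in short-day bed nucleus samples, against 343, 423 and 340 in long-day ones. Preoptic samples read 370, 379 and 335 in short days, against 378, 334 and 418 in long days. The highest and the lowest of the 11 readings, 423 and 322, both came from the bed nucleus. The day length difference was -0.02 ± 0.16 in the bed nucleus (interval -0.346 to 0.304, adjusted p = 0.971) and -0.06 ± 0.14 in the preoptic area (-0.347 to 0.235, adjusted p = 1). The nuclei differed by -0.01 ± 0.10, a fold of 0.99 with an interval of 0.851 to 1.15 (adjusted p = 0.974). For Gad2 and for the brighter Gad1 probe set, the interval between nuclei thus holds changes of about 15% in either direction. In a bulk punch, fewer GABAergic cells and less of a transcript per cell cannot be told apart.

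**Figure D1:**
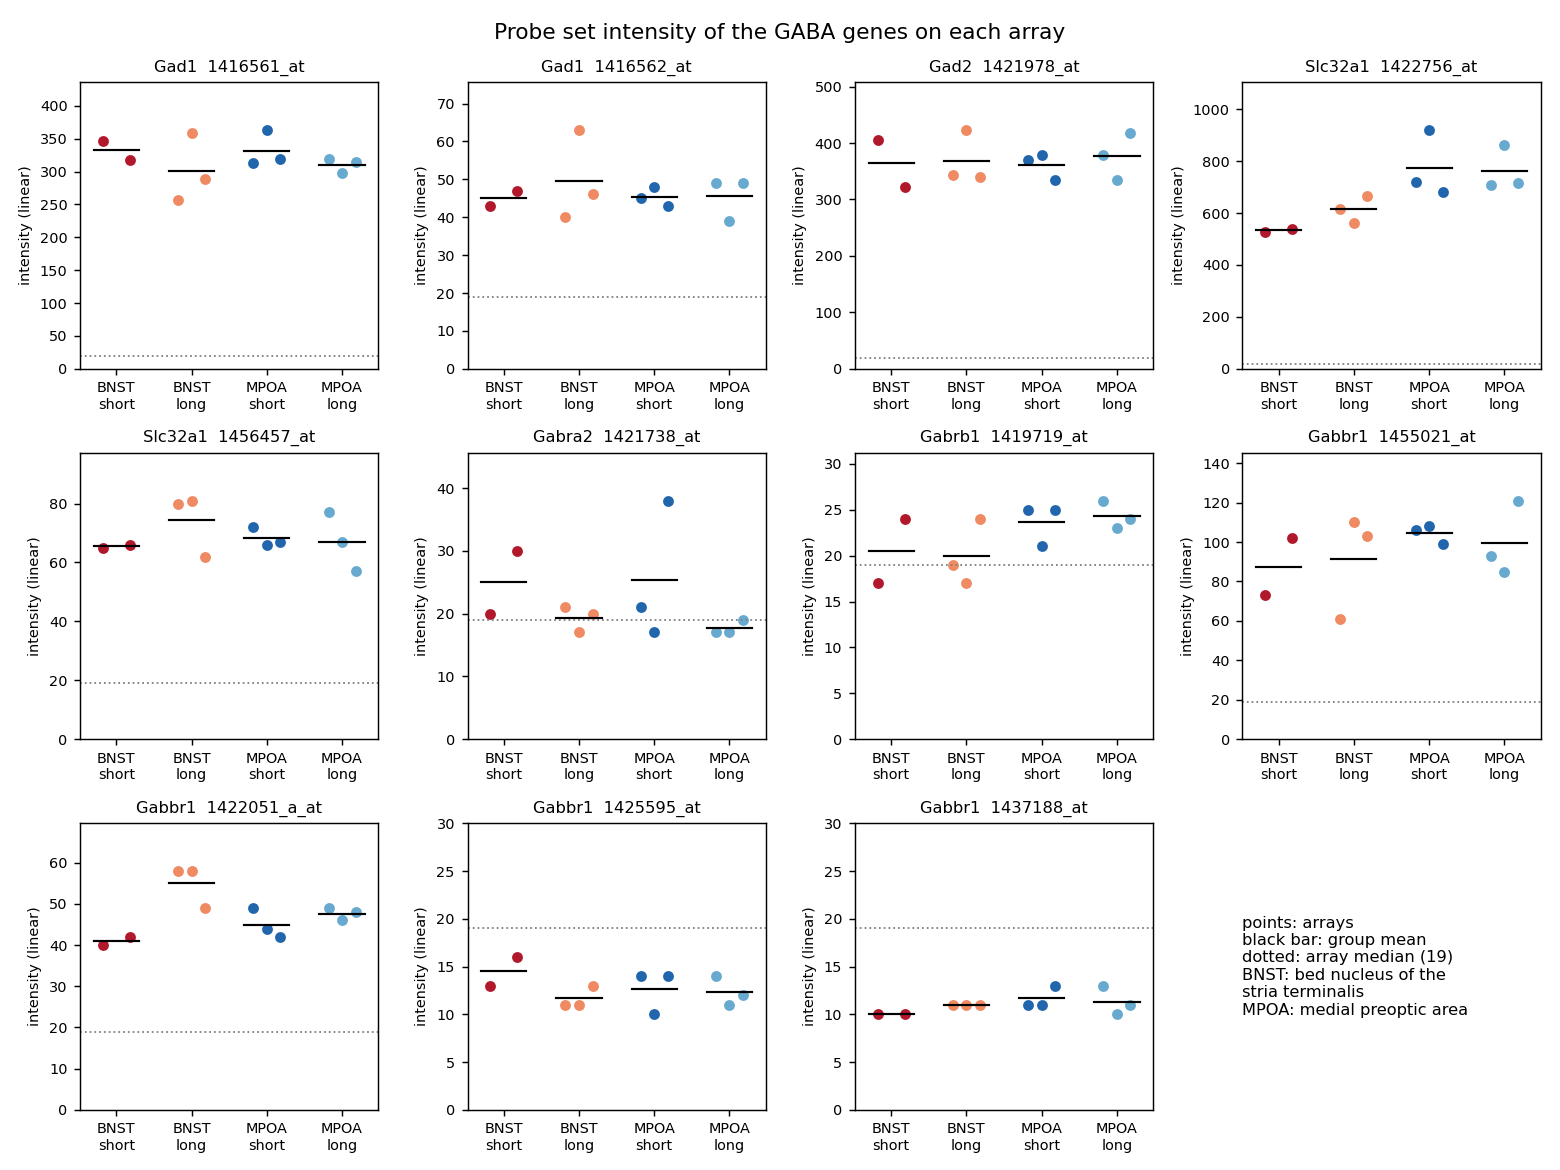
Intensity (linear scale) of each of the 11 probe sets on each array, by nucleus and day length, with the group means as bars. Slc32a1 1422756_at is the only one whose 5 bed nucleus arrays (528 to 664) all lie below its 6 preoptic arrays (681 to 920).

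Slc32a1 came nearest to a difference. Its brighter probe set, 1422756_at, read 528 and 539 in short-day bed nucleus samples, against 617, 561 and 664 in long-day ones. The preoptic samples read 721, 920 and 681 in short days, against 709, 862 and 716 in long days. All 5 bed nucleus arrays therefore lay below all 6 preoptic arrays, which was so, in either direction, for 1.47% of all probe sets. The averages were 582 ± 57.3 in the bed nucleus and 768 ± 97.9 in the preoptic area (SD, n = 5 and 6), a difference of -0.42 ± 0.10 and a fold of 0.749 (interval 0.644 to 0.871). The unadjusted limma p was 0.000707 and the adjusted p 0.0604, just short of the threshold. Without array 6 of the short-day preoptic group the difference was -0.46 with an adjusted p of 0.0381, past the threshold. Without any other single array the adjusted p lay between 0.0682 and 0.188.

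The second Slc32a1 probe set, 1456457_at, did not show this. It read 65 and 66 in short-day bed nucleus samples, against 80, 81 and 62 in long-day ones, and 72, 66 and 67 in short-day preoptic samples, against 77, 67 and 57 in long-day ones. Its nuclei differed by 0.04 ± 0.11 (interval -0.175 to 0.265, adjusted p = 0.915), an interval that does not reach that of the first probe set (-0.634 to -0.2). The lower reading of Slc32a1 in the bed nucleus thus rests on 1 of its 2 probe sets.

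In order of its mean, Slc32a1 1422756_at was lowest in short-day bed nucleus samples (534 ± 7.78), then long-day bed nucleus (614 ± 51.6), long-day preoptic (762 ± 86.4) and short-day preoptic samples (774 ± 128). The 2 preoptic groups overlapped. The 2 bed nucleus groups did not overlap, with a short-day minus long-day difference of -0.20 ± 0.16 (interval -0.524 to 0.125, adjusted p = 0.63). Groups that do not overlap are common in that comparison of 2 with 3 arrays, at 23.7% of all probe sets. That long-day bed nucleus and long-day preoptic readings did not overlap follows from the separation of all bed nucleus from all preoptic arrays given above.

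Marker lists of other cells were compared between the nuclei as well. The 10 measured markers of striatal medium spiny neurons, which are themselves GABAergic, summed to 3768 to 3966 in short-day and 3153 to 3831 in long-day bed nucleus samples. Preoptic samples summed to 1726 to 2287 in short days and 2178 to 3055 in long days. Most of each sum came from Foxp1 alone. It read 3262 and 3422 in short-day and 3097, 3293 and 2697 in long-day bed nucleus samples, and 1428 to 2615 in preoptic samples. The sums therefore largely follow 1 probe set. Of these 10, 5 rose in the bed nucleus and 0 fell, against 1.26% of all genes called. They were Foxp1 (0.80), Rasd2 (1.09), Rgs9 (0.71), Pde10a (0.60) and Ppp1r1b (0.58 on the log2 scale), with adjusted p between 0.000984 and 0.0487, and the median of the 10 was 0.59. The calls of Rgs9 and Pde10a were lost in 13 of 23 alternative analyses each, that of Ppp1r1b in 9, and those of Foxp1 and Rasd2 in 1 each. Without array 6 of the short-day preoptic group Rgs9 had an adjusted p of 0.0805 and Pde10a of 0.0555, and the other 3 passed. Between the long-day groups alone none of the 5 passed (differences of 0.38 to 0.89, limma adjusted p between 0.126 and 0.58). Between the short-day groups alone the differences were 0.74 to 1.30. There Foxp1 (adjusted p = 0.00659) and Rasd2 (0.0228) passed and the other 3 did not. These 2 contrasts were chosen after seeing the data. The 12 general neuron markers had a median of -0.21, and 1 fell, the growth cone protein gene Gap43 (-0.48, adjusted p = 0.02, lost in 6 of 23), while the other 11 did not pass. They summed to 2979 to 3041 and 3217 to 3520 in short-day and long-day bed nucleus samples, and to 3579 to 4118 and 3539 to 4066 in short-day and long-day preoptic samples. The 7 measured oligodendrocyte markers summed to 229 to 453 and 271 to 413, against 178 to 277 and 208 to 254, in the same order, with a median of 0.30, and none of the 7 passed (adjusted p between 0.161 and 0.944). The lowest value in the whole table was 5, so a reading of 0 could not mark a gene as absent. The part of these markers in the Slc32a1 difference was not tested.

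**Figure D2:**
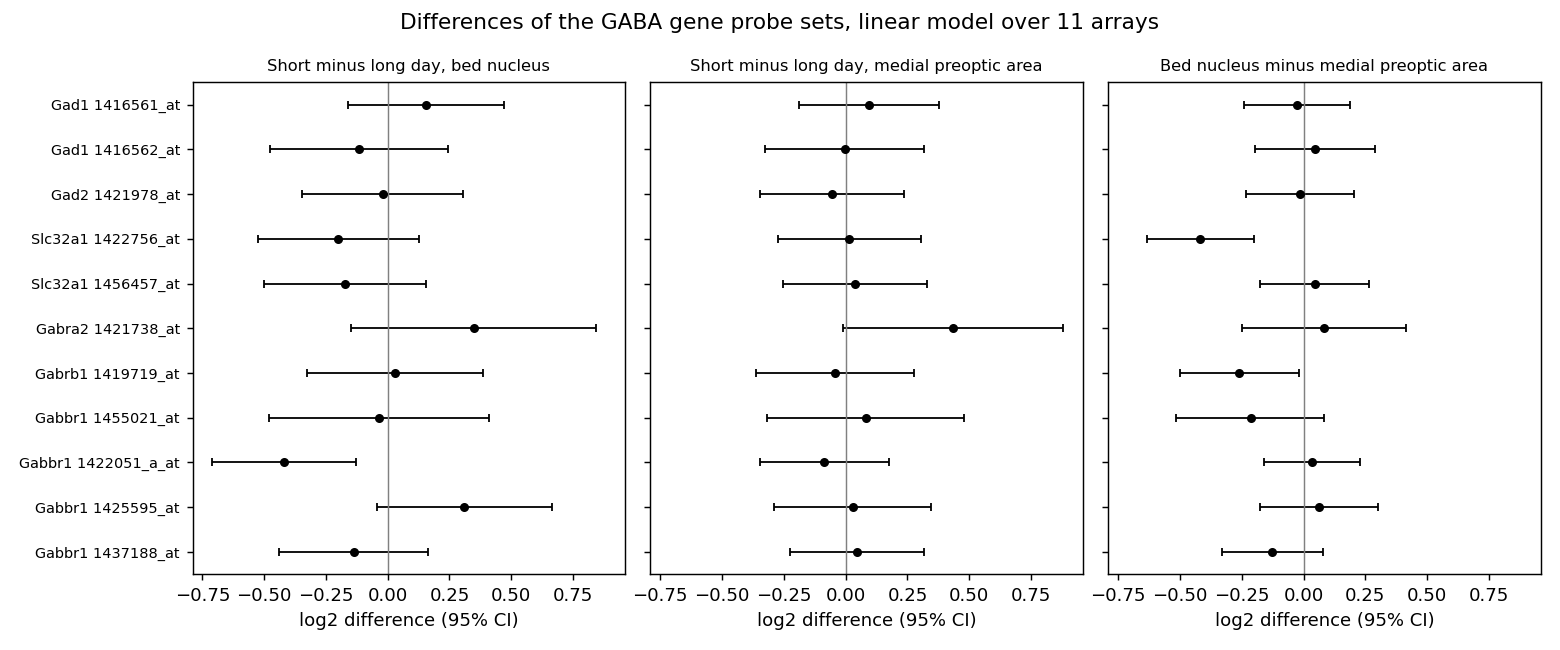
Log2 differences of the 11 probe sets with 95% confidence intervals, from the linear model over 11 arrays, for short minus long days in each nucleus and for bed nucleus minus preoptic area. Slc32a1 1422756_at lies at -0.42 between the nuclei, and for Gad1 and Gad2 every interval includes 0.

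The GABA-A receptor subunits read near the array median of 19, at or under which 51.1% of all values lay. At 19 units, 1 unit of rounding is worth about 0.074 on the log2 scale. Gabra2 (1421738_at) read 20 and 30 in short-day bed nucleus samples, against 21, 17 and 20 in long-day ones. Preoptic readings of Gabra2 were 21, 17 and 38 in short days, against 17, 17 and 19 in long days. Both averages were thus carried by 1 short-day array of each nucleus, array 5 of the bed nucleus and array 6 of the preoptic area. The day length difference was 0.35 ± 0.24 in the bed nucleus (interval -0.149 to 0.844, adjusted p = 0.573), and 0.05 without array 5 of that group. In the preoptic area it was 0.44 ± 0.21 (interval -0.00921 to 0.879, unadjusted p = 0.0545 and adjusted p = 1 by limma), and 0.10 without array 6. Between the nuclei Gabra2 differed by 0.08 ± 0.16 (adjusted p = 0.892).

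Gabrb1 (1419719_at) read 17 and 24 in short-day bed nucleus samples, against 19, 17 and 24 in long-day ones. Gabrb1 readings in preoptic samples were 25, 21 and 25 in short days, against 26, 23 and 24 in long days. No preoptic array fell below 21, while 3 of the 5 bed nucleus arrays did, and the other 2 lay inside the preoptic range. The nuclei differed by -0.26 ± 0.12, a fold of 0.835 (interval -0.5 to -0.0203 on the log2 scale, unadjusted p = 0.035 and adjusted p = 0.368 by limma). The exact permutation p was 0.0649, 2-sided and unadjusted. The day length differences were 0.03 ± 0.17 in the bed nucleus (adjusted p = 0.963) and -0.04 ± 0.15 in the preoptic area (adjusted p = 1).

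Gabbr1, the GABA-B receptor subunit that binds GABA, had 4 probe sets, which did not move together. The brightest, 1455021_at, read 73 and 102 in short-day bed nucleus samples, against 61, 110 and 103 in long-day ones. Its preoptic readings were 106, 108 and 99 in short days, against 93, 85 and 121 in long days. The bed nucleus arrays of each day length thus spread as widely as any difference between groups, and the day length difference there was -0.04 ± 0.21 (adjusted p = 0.964). The nuclei differed by -0.21 ± 0.14 (adjusted p = 0.596).

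Probe set 1422051_a_at of Gabbr1, whose suffix marks a set that can match several transcripts of the gene, had the smallest p of the 11 between day lengths. It read 40 and 42 in short-day bed nucleus samples, against 58, 58 and 49 in long-day ones. Its preoptic readings were 49, 44 and 42 in short days, against 49, 46 and 48 in long days. The bed nucleus groups did not overlap and the preoptic groups did. The short-day minus long-day difference was -0.42 ± 0.14 in the bed nucleus, a fold of 0.748 (interval -0.71 to -0.13, unadjusted p = 0.00681 and adjusted p = 0.212 by limma). In the preoptic area it was -0.09 ± 0.12 (adjusted p = 1). The difference between these day length effects was -0.33 ± 0.19 (unadjusted p = 0.0885, adjusted p = 0.666), so the 2 nuclei were not shown to differ. With each array left out in turn the bed nucleus difference lay between -0.50 and -0.38.

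The remaining Gabbr1 probe sets, 1425595_at and 1437188_at, read at most 16 and 13 on every array, below the array median of 19. At 11 units, 1 unit of rounding is worth 0.13 on the log2 scale. Probe set 1425595_at averaged 14.5 ± 2.12 in short-day and 11.7 ± 1.15 in long-day bed nucleus samples (SD, n = 2 and 3), a difference of 0.31 ± 0.17 (adjusted p = 0.46). Its direction is opposite to that of 1422051_a_at. Probe set 1437188_at read 10 and 10 in short-day bed nucleus samples, against 11, 11 and 11 in long-day ones, a step of 1 unit (adjusted p = 0.741).

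Of the 11 probe sets, the readings of the day length groups did not overlap for 3 in the bed nucleus, against 23.7% of all probe sets, and for 0 in the preoptic area, against 5.19%. In the bed nucleus 4 lay above and 7 below 0, with differences between -0.42 and 0.35. In the preoptic area 7 lay above and 4 below 0, between -0.09 and 0.44. The difference between the 2 day length effects ran from -0.33 to 0.28. Across all 11 arrays the highest reading of a probe set was 1.3 to 2.24 times its lowest, and Gabra2 had the widest range.

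The readings of the 2 enzymes were set against each other and against Slc32a1 across arrays, in 6 relations. Because the nuclei formed separate clusters for Slc32a1, its relations were computed within the 6 preoptic arrays only. The 2 Gad1 probe sets gave a Pearson r of 0.613 over 11 arrays (permutation p = 0.0364, 0.109 after adjustment over the 6 relations) and a Spearman rho of 0.526 (permutation p = 0.0989, adjusted 0.209). Gad1 1416561_at and Gad2 gave r = 0.578 (permutation p = 0.0565, adjusted 0.113) and rho = 0.519 (p = 0.104, adjusted 0.209). Gad1 1416562_at and Gad2 gave r = 0.622 (permutation p = 0.0357, adjusted 0.109) and rho = 0.598 (p = 0.0571, adjusted 0.209). None of the 6 passed after adjustment.

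With the 2 arrays farthest from the median left out, these 3 values of r became 0.594, 0.663 and 0.333 (n = 9), so the last rests on those arrays. Within the preoptic area they were 0.564, 0.304 and 0.865 (n = 6), and no value is given for the 5 bed nucleus arrays, since correlations were limited to 6 or more samples. The 2 Slc32a1 probe sets gave r = -0.11 (exact p = 0.794) and rho = -0.319 (exact p = 0.55) within the preoptic area. There Slc32a1 1422756_at gave r = 0.427 with Gad1 1416561_at (exact p = 0.589; rho = -0.116, exact p = 0.839). With Gad2 it gave r = -0.115 (exact p = 0.897; rho = 0.0857, exact p = 0.919).

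**Figure D3:**
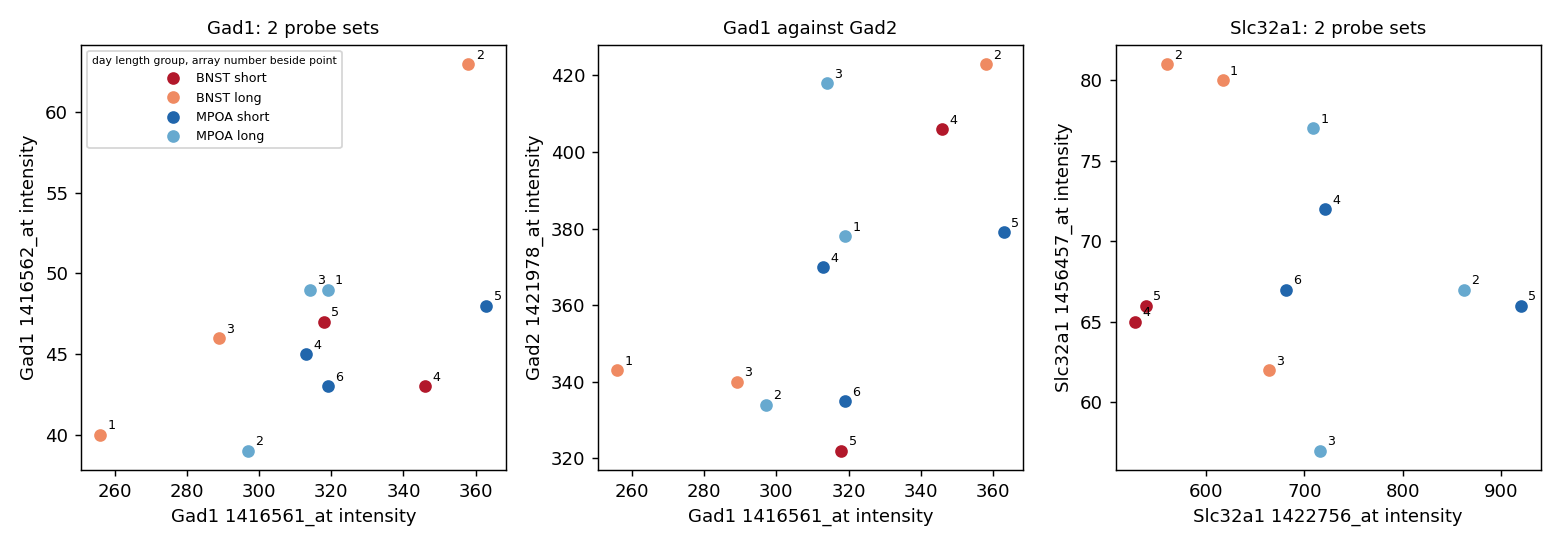
Intensity of 1 probe set against another, 1 point per array, coloured by group and numbered as in the labels. Gad1 1416561_at and Gad2 gave r = 0.578 over 11 arrays, while the 2 Slc32a1 probe sets, whose brighter one separates the nuclei, gave r = -0.11 within the preoptic area.

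Other genes whose log2 readings most resembled those of each GABA gene's brightest probe set over the 11 arrays were ranked by Pearson r among brighter probe sets, as a description. For Gad1 they were Tiparp (0.916), Calr (0.898) and Ntrk2 (0.897), and for Gad2 they were Ndrg3 (0.873), Hsd17b12 (0.842) and Tcl1b3 (0.822). For Slc32a1 they were Tmem147 (0.971), Slc66a2 (0.966) and Elob (0.957). Its nuclei formed separate clusters, so genes that differ between the nuclei rank high here. By Spearman rho its nearest were Psmd6 (0.982), Pafah1b3 (0.98) and Slc66a2 (0.975). For Gabra2 they were Eral1 (0.934), Riox2 (0.93) and Sesn1 (0.911), for Gabrb1 Pkdrej (0.929), Ube2v2 (0.896) and Dph5 (0.88), and for Gabbr1 Eif2b5 (0.894), Dusp6 (0.886) and Ktn1 (0.873). By Spearman rho none of the 3 nearest stayed the same for Gabra2 (Ppm1b, Ppm1a and Aif1l) or for Gabbr1 (Dld, Psme3ip1 and Eea1). No GABA gene was among the 3 nearest of another.

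Beyond the 6 genes, 24 of 40 listed genes of GABA breakdown, uptake, receptors, synapse scaffold and chloride transport were measured, at 1 probe set per gene. None passed the test in any of the 4 comparisons, in which 0.0646%, 0%, 1.26% and 0% of all 12393 genes were called. The 24 lay 12 above and 12 below 0 between day lengths in the bed nucleus, with a median of -0.04 against -0.03 for all genes. For the preoptic area 14 lay above and 10 below, with a median of 0.05 against -5.4e-05. Between the nuclei 11 lay above and 13 below, with a median of -0.03 against 0.0036.

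Among the genes of breakdown and uptake, Abat, the transaminase that degrades GABA, differed by 0.34 ± 0.14 between day lengths in the bed nucleus (unadjusted p = 0.0278, adjusted p = 0.327 by limma). Its further probe set gave -0.22 ± 0.15. Glul, glutamine synthetase of astrocytes, gave -0.13 ± 0.20 in the same comparison, and 0.31 ± 0.17 by its further probe set (adjusted p = 0.452). There the uptake carriers Slc6a12 and Slc6a13 gave 0.01 ± 0.15 and 0.17 ± 0.16. Of the chloride transporters, which set whether GABA inhibits or excites, Slc12a5 (KCC2) differed by -0.18 ± 0.10 and Slc12a2 (NKCC1) by 0.25 ± 0.13 between the nuclei (adjusted p = 0.482 and 0.45). Further probe sets had the opposite signs, at 0.11 ± 0.12 for Slc12a5, and at -0.27 ± 0.13 and -0.10 ± 0.12 for Slc12a2, so no direction can be given for either gene.

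Of the 16 other GABA-A receptor subunits listed, 11 were measured, and 4 of these averaged above the array median of 19. Between day lengths in the bed nucleus 7 lay above and 4 below 0, with a median of 0.07. The smallest p was that of Gabre, the epsilon subunit, which read 19 and 19 in short-day samples, against 14, 13 and 13 in long-day ones. Gabre did not read above the array median on any array. Its difference was 0.51 ± 0.14 (unadjusted p = 0.00163, adjusted p = 0.137), and its preoptic readings were 19, 15 and 17 in short days, against 17, 15 and 16 in long days. Among these 11 subunits the day length effect differed most between the nuclei for Gabrb2 (-0.71 ± 0.22, adjusted p = 0.461) and Gabra3 (-0.68 ± 0.22, adjusted p = 0.47). Gabrb2, the beta 2 subunit, read 23 and 19, against 28, 29 and 22 in the bed nucleus, and 33, 25 and 31, against 23, 20 and 25 in the preoptic area, short days before long days each time. Gabra3, the alpha 3 subunit, read 10 to 17 on all arrays, below the array median.

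The 10 genes of the inhibitory synapse scaffold and receptor trafficking had 7 measured members, of which 2 lay above and 5 below 0 between day lengths in the bed nucleus. Gabarapl1, a relative of the GABA-A receptor associated protein Gabarap, read 37 and 31 in short-day bed nucleus samples, against 25, 24 and 25 in long-day ones. The difference was 0.46 ± 0.14 (unadjusted p = 0.00466, adjusted p = 0.19), and its further probe set gave 0.09. Trak1, a trafficking adaptor of mitochondria and GABA-A receptors, read 40, 43 and 46 in short-day preoptic samples, against 31, 31 and 38 in long-day ones (0.37 ± 0.14, adjusted p = 1), and its further probe set gave -0.10 ± 0.15.

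Markers of GABAergic neurons were also listed. Of 10 transcription factors 7 were measured, and between the nuclei 1 rose and 1 fell, against 1.26% of all 12393 genes called. Meis2, a homeobox gene of striatal and other ventral forebrain neurons, read 771 and 760 in short-day and 848, 614 and 729 in long-day bed nucleus samples. Its preoptic readings were 296, 517 and 183 in short days and 667, 564 and 493 in long days. The nucleus difference was 0.84 ± 0.18 (adjusted p = 0.0256), and 0.66 without array 6 of the short-day preoptic group (adjusted p = 0.024). Between the short-day groups alone it was 1.33 (adjusted p = 0.0318) and between the long-day groups alone 0.34 (adjusted p = 0.647), contrasts chosen after seeing the data. The call was lost in 9 of 23 alternative analyses, 7 of which left out 1 array.

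Lhx6, a LIM homeobox gene of neurons from the medial ganglionic eminence, read 35 and 40 in short-day and 45, 34 and 39 in long-day bed nucleus samples. The preoptic readings were 45, 54 and 63 in short days and 58, 48 and 50 in long days. The difference was -0.46 ± 0.11 (adjusted p = 0.0485), its further probe set gave -0.09 (adjusted p = 0.774), and the call was lost in 14 of 23 alternative analyses. Without array 6 of the short-day preoptic group it was -0.40 (adjusted p = 0.0856). Zfhx3, a zinc finger homeobox gene, read 125 and 100 in short-day bed nucleus samples, against 157, 256 and 157 in long-day ones (-0.72 ± 0.21, adjusted p = 0.158). Its further 2 probe sets gave -0.52 and -0.53. In the preoptic area the first probe set of Zfhx3 gave 0.21, and the further 2 gave -0.07 and 0.20. The difference between the day length effects was -0.94 ± 0.28 for the first (limma adjusted p = 0.45), and -0.45 and -0.73 for the further 2.

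All 9 listed peptides and calcium binding proteins of GABAergic neurons were measured and none passed the test. Between the nuclei 7 lay above and 2 below 0, with a median of 0.33. Penk, the enkephalin precursor, had an adjusted p of 0.0591 (0.55 ± 0.14). Between day lengths in the preoptic area the 9 had a median of -0.23, against -5.4e-05 for all genes, and 8 lay below 0. In the bed nucleus their median was 0.27, against -0.03 for all genes, with 6 above and 3 below 0. There Vip (0.36), Cartpt (0.31), Calb1 (0.29) and Tac1 (0.28) had group means of only 11.3 to 21.5. The further Calb1 probe set gave -0.21. Of the brighter genes, Calb2 and Penk gave 0.27 and 0.10, and Sst, Npy and Pvalb gave -0.25, -0.11 and -0.23. Npy, the neuropeptide Y gene, read 82, 198 and 65 in short-day preoptic samples, against 237, 258 and 131 in long-day ones (-0.97 ± 0.34, adjusted p = 1).

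**Figure D4:**
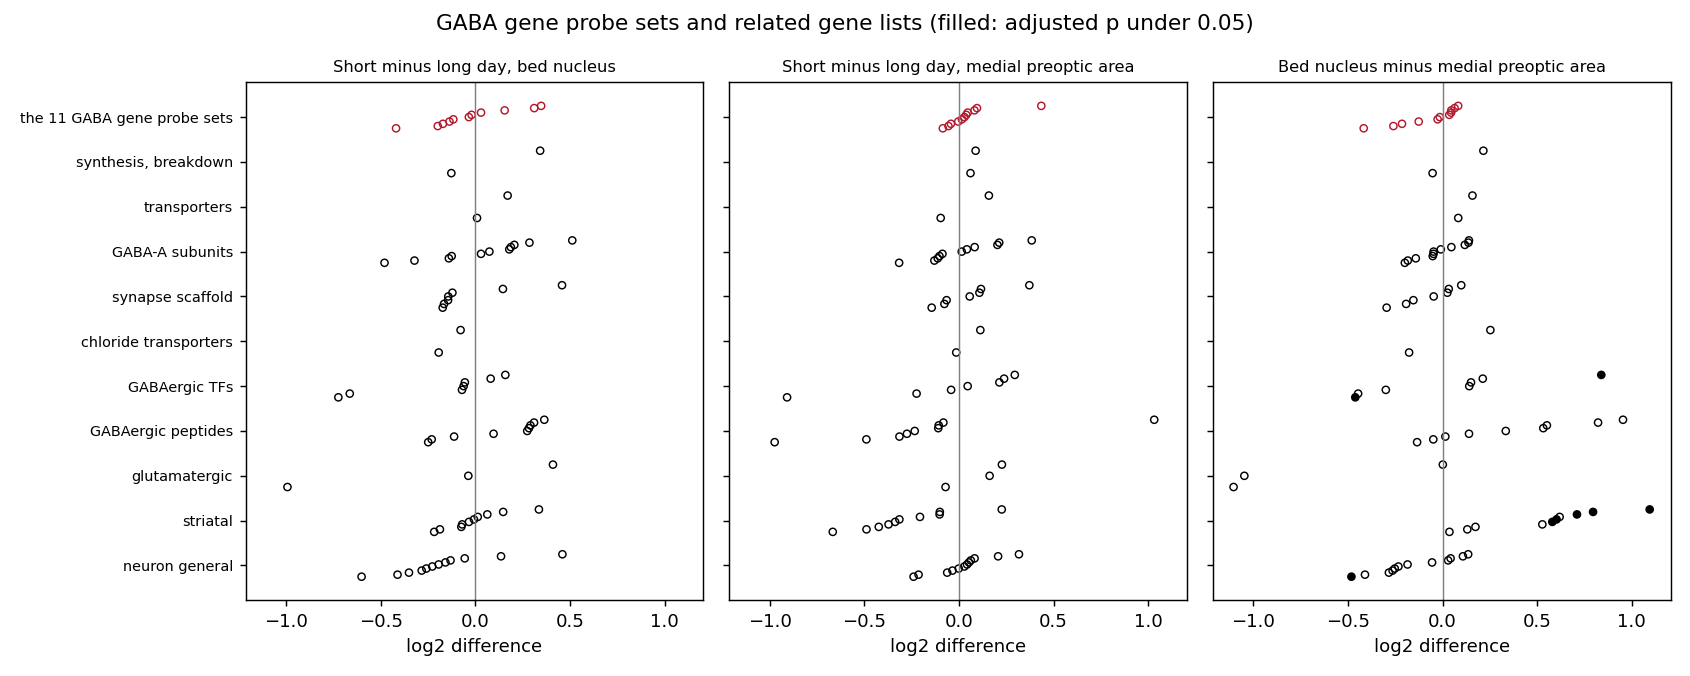
Log2 differences of the 11 GABA gene probe sets and of genes in related lists, 1 point per probe set or gene, with filled points at an adjusted p under 0.05. Only Meis2 and Lhx6, between the nuclei, are filled among the GABA-related lists, while 5 of the 10 striatal markers are filled.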

How the data were processed

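Each deposited value is an intensity of 1 probe set, linear and rounded to a whole number, and the submitters' processing notes name RMA 3.4. Background correction and probe summary were not redone. Probes were designed for the house mouse, and the effect of sequence differences in Peromyscus was not tested. Of 22690 probe sets, 64 controls were left out. Of the 22626 tested, 20380 had 1 gene symbol in the platform annotation, 691 several and 1555 none; none was named from a probe set with several symbols. Log2 values were fitted as 4 group means over 11 arrays with limma 3.58.1 (lmFit and eBayes, R 4.3.3; 7 residual and 12.9 prior degrees of freedom). The procedure was tested on simulated arrays. Since the labels do not name animals, p-values measure the spread between these samples. The small number of arrays limits precision.

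The members and lists were chosen with earlier results of these data known. All 11 member probe sets are described. From the lists, every gene past the threshold and the 3 with the smallest p per comparison were named, by the probe set with the highest mean, and genes of the small lists for completeness. The permutation tests of the relations across arrays used scipy 1.17.1. The exact permutation test between the nuclei and the correlations with other genes were computed in R 4.3.3. Alternatives were quantile normalization, centring on the 75th percentile, an offset of 10, a filter on dim probe sets, another prior, array weights, 1 probe set per gene, arrays of 1 nucleus alone, each array left out, the sample number as a block, a threshold of 0.10 and Spearman correlation for likeness; 1 day length alone was added after seeing the data. Gene sequences were not used here.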

Additional observations from a re-analysis of the deposited data

How the results depend on the processing

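The difference of Slc32a1 1422756_at between the nuclei (-0.42, limma adjusted p = 0.0604) lay on the threshold. It passed after centring on the 75th percentile (-0.44, adjusted p = 0.0436), with 10 added (-0.41, 0.0284), without dim probe sets (-0.42, 0.041), with a trended and robust prior (-0.42, 0.0232), with array weights (-0.43, 0.0433) and at a threshold of 0.10. It did not pass after quantile normalization (-0.41, 0.056), at 1 probe set per gene (0.0519), or in long days alone (-0.31, 0.451) and short days alone (-0.52, 0.171). With 1 array left out it lay between -0.46 and -0.35. The number of GABA gene probe sets called between the nuclei was thus 1 in those 6 alternatives and 0 to 1 with an array left out.

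Over all probe sets, the 10 calls between day lengths in the bed nucleus became 0 with the arrays of that nucleus alone and 30 at a threshold of 0.10. They ranged from 0 (without short-day bed nucleus array 5) to 38 (without short-day preoptic array 6). The 0 calls in the preoptic area became 1 with array weights and 0 to 1 with an array left out. The 233 calls between nuclei became 402 at 0.10, 29 in long days alone, 80 in short days alone and 70 to 224 with an array left out. The 0 calls for the difference of the day length effects became 0 to 5.

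Of 44 member differences, 25 turned sign somewhere, none of them called. Short minus long days in the bed nucleus, Gad2 became 0.12 after quantile normalization and 0.0073 after 75th percentile centring, and Gabbr1 1455021_at 0.0781 after quantile normalization. With an array left out, Gad1 1416562_at ranged from -0.26 to 0.0677, Gad2 from -0.19 to 0.15, Gabrb1 from -0.22 to 0.28 and Gabbr1 1455021_at from -0.30 to 0.21. In the preoptic area, Gad1 1416562_at became 0.0104 after centring and Gabbr1 1437188_at -0.0134 with array weights. With an array left out, Gad1 1416562_at ranged from -0.11 to 0.051, Gad2 from -0.14 to 0.0222, Slc32a1 1422756_at from -0.12 to 0.11, Slc32a1 1456457_at from -0.073 to 0.14 and Gabrb1 from -0.0849 to 0.0409. There Gabbr1 ranged from -0.025 to 0.23 (1455021_at), from -0.0526 to 0.19 (1425595_at) and from -0.0402 to 0.15 (1437188_at).

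Between nuclei in short days alone, the signs turned for Gad1 (0.0033 for 1416561_at, -0.0106 for 1416562_at), Gad2 (0.00298), Slc32a1 1456457_at (-0.0601) and Gabbr1 1422051_a_at (-0.13), and in long days alone for Gabbr1 1425595_at (-0.0775). With an array left out, Gad1 ranged from -0.0923 to 0.0286 (1416561_at) and from -0.0464 to 0.12 (1416562_at), and Gad2 from -0.10 to 0.0689. Slc32a1 1456457_at ranged from -0.0106 to 0.11, Gabra2 from -0.0638 to 0.25 and Gabbr1 1425595_at from -0.0173 to 0.14. For the difference of the day length effects, Gabra2 became 0.0857 with array weights. There Gad1 ranged from -0.0506 to 0.19 (1416561_at) and from -0.26 to 0.0716 (1416562_at), Gad2 from -0.13 to 0.20, Gabra2 from -0.38 to 0.25, Gabrb1 from -0.18 to 0.32 and Gabbr1 1455021_at from -0.38 to 0.12. The causes were not tested.

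For sample numbers shared by the nuclei, deviations from the group means correlated between -0.03 and 0.07, and 1 of 5 correlated best with its own number. With so few arrays per group these deviations are not free of each other, so whether a number marks the same animal could not be decided. As a fixed replicate block the sample numbers gave 225 calls between nuclei and -0.46 for Slc32a1 1422756_at (adjusted p = 0.0614). For the difference of the day length effects they gave -0.0182 for Gad2 and 0.25 for Gabra2. As a random replicate block they gave 244 calls and -0.42 (0.0584), and 10 calls between day lengths in the bed nucleus.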

Other observations

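Markers of glutamatergic neurons, the excitatory counterpart of the GABA genes, were listed as well, and 3 of 7 were measured. None passed the test in any comparison (limma, adjusted p under 0.05). Between bed nucleus and preoptic area, Tbr1, a T-box gene of cortical glutamatergic neurons, differed by -1.05 ± 0.26 (SE, log2 scale, adjusted p = 0.0649). Slc17a6, the vesicular glutamate transporter VGLUT2, differed by -1.10 ± 0.39 (adjusted p = 0.218), and Neurod6 by 0.0012 ± 0.10 (adjusted p = 0.999). Slc17a6 averaged 23.5 in short-day and 70 in long-day bed nucleus samples, against 74 and 67.3 in short-day and long-day preoptic ones. The sum of the 3 markers ran from 31 to 187 within the long-day bed nucleus group. The arrays of the nuclei overlapped for each of the 3. The medians of the astrocyte and microglia markers between the nuclei were 0.02 over 8 genes and -0.0046 over 7 genes.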
